A study of Mus musculus with 10 samples.

Results

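Tbr1 ganglion cells are retinal ganglion cells (RGCs) that carry transcripts of the T-box transcription factor Tbr1. They were selected on measured values, their Tbr1, Opn4, Eomes and Foxp2 counts: a cell was a member when it held at least 2 Tbr1 UMIs (unique molecular identifiers, each standing for 1 captured transcript), at least 1 Tbr1 UMI per 10000 UMIs of the cell, and less than 1 per 10000 each of Opn4, Eomes and Foxp2, which mark other RGC classes. By this rule 53 of 2871 cells were Tbr1 ganglion cells, 44 of 1683 from uninjured retinas and 9 of 1188 from retinas taken 2 weeks after optic nerve crush (ONC), which severs the axons of RGCs. All mice were wild-type 129S1/SvImJ of 12 weeks (postnatal day 84), given as of both sexes, and the RGCs were enriched by immunopanning on Thy1, with 10 retinas pooled for each capture, so that single animals cannot be told apart. The other cells of the same samples, 2818 in all, served as the comparison.

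Tbr1 belongs to the T-box family of transcription factors, which bind DNA through a shared domain. In the cerebral cortex it specifies deep-layer projection neurons. In the retina it is known from a few RGC types whose dendrites stratify in the sublayer that responds to light decrements, among them the J-RGCs, which carry the junctional adhesion molecule Jam2 and have dendrites that point ventrally, and some of the alpha cells. The sorting receptor Sorcs3 and the cadherin Cdh8 are known to depend on Tbr1 in these cells and to act in placing their dendrites.

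Tbr1 and Sorcs3 are shown by the 250 bases before their RefSeq start sites, because Tbr1 defined the cells and Sorcs3 was higher in them in every sample. The bases are those of the RefSeq promoter table (build GRCm38.p6), and each run had 1 exact match on its chromosome in GRCm39, the build the reads were aligned to, at chr2:61634547-61634796 (Tbr1, forward strand) and chr19:48194214-48194463 (Sorcs3, forward strand). The Tbr1 window lies inside the Tbr1 gene as GENCODE draws it on GRCm39 (61633274 to 61644458), whose start is farther upstream, and the Sorcs3 window ends at the base before the GENCODE gene (48194464 to 48793944).
Tbr1: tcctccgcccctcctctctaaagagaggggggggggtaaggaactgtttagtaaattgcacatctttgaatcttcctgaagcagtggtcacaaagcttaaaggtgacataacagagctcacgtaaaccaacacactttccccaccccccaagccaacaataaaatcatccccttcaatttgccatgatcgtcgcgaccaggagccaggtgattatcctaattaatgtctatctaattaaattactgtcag
Sorcs3: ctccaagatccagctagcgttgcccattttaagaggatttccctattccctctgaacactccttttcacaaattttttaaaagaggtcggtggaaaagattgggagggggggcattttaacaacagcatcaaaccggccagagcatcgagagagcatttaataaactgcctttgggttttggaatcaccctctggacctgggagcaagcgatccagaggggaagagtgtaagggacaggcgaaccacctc
Capitals would mark the T-box core letters GGTGTG on either strand, and these letters are in neither window. In the full windows of the table (250 bases before to 50 after the start), GGTGTG was found in 21.4% of 27025 genes and the longer T-box letters AGGTGTGA, which contain it, in 1.48%, and among the 8575 tested genes with a window in 20.3% and 0.886%. Among genes that were higher in Tbr1 ganglion cells than in other cells by the test below, 128 had a window, of which 23.4% held GGTGTG and 0 held AGGTGTGA. Among the genes that were lower, 188 had a window, of which 22.3% held GGTGTG and 0 held AGGTGTGA. A match is a run of letters and not a bound site, and a missing match says only that these letters are not in this window.

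Depth and capture bear on every value that follows. Injured 3 and injured 4 shared 421 cell barcodes, so they were joined to 1 sample, injured 3/4, after the shared barcodes of injured 4 were dropped, which left 6 uninjured and 3 injured samples (any other pair of libraries had at most 1 barcode in common). Uninjured 1 and 2, 3 and 4, 5 and 6, and injured 1 and 2 had been found alike in earlier work on these data, so each comparison was repeated with those libraries summed. Uninjured 1 to 6 gave 2, 7, 4, 18, 4 and 9 Tbr1 ganglion cells, and injured 1, 2 and 3/4 gave 5, 2 and 2. Their median depth was 27780 UMIs and 6515 genes per cell in uninjured and 12190 UMIs and 4263 genes per cell in injured samples, and the other cells had medians of 27816 and 14097 UMIs. Transcripts of the mCherry reporter were seen in 2 of 2 Tbr1 ganglion cells of injured 3/4 and in 0 of those of injured 1 and 2, and in 83.3% of the other cells of injured 3/4, 8.11% and 15.1% of those of injured 1 and 2 and 0 of those of the uninjured samples. Xist transcripts, which are made in female cells, were seen in 3 of 5 and 2 of 2 Tbr1 ganglion cells of injured 1 and 2, in 0 of 2 of injured 3/4 and in 0 of the 44 uninjured ones. Among the other cells Xist had a UMI in 62.2% and 67.2% of those of injured 1 and 2, in 0.522% of those of injured 3/4 and in at most 0.474% of those of any uninjured sample. Injured 1, the only injured sample of the planned test after ONC, thus stood apart from every uninjured sample in Xist too, and there the part of ONC and of sex cannot be told apart. In the paper, mCherry is the reporter of AAV2 virus vectors injected into the eye 2 weeks before ONC, and its methods for these single-cell libraries name no vector. Among the other cells the reporter was seen in every injured and in no uninjured sample. The part of such a vector cannot be told apart from that of ONC either. The part of these differences in the comparisons with ONC was not tested. Nothing says that the libraries of a condition came from separate groups of mice, so p-values measure the spread between these samples, which may be technical.

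Tubb3, Sncg, Rbpms and Slc17a6, which RGCs of all types share and by which the study selected its cells, had at least 1 UMI in each of the 53 cells, as in 100% of the other cells, so that they check nothing here. Slc17a6, the vesicular glutamate transporter of RGCs, stood at 515 to 819 CPM (UMIs scaled to a total of 1000000) in the uninjured and at 770, 583 and 733 CPM in the injured samples of Tbr1 ganglion cells. Markers of other retinal cells were partly at 0. In uninjured Tbr1 ganglion cells, all 6 vascular markers, 8 of 12 photoreceptor markers and 7 of 11 bipolar markers had 0 UMIs, and so did Chat, Slc18a3 and Sox2 among 14 amacrine markers, Aqp4, Sox9 and Gfap among 10 glial markers, and C1qa, C1qb, C1qc, Csf1r, Tyrobp and Ptprc among 10 microglial markers. The summed amacrine markers were 1.92 to 5.99 UMIs per 10000 in uninjured and 1.95 to 4.54 in injured Tbr1 ganglion cells, beside 2.18 to 4.61 and 3.36 to 4.50 in the other cells. The summed glial markers were 1.89 to 3.87 and 1.08 to 3.42, beside 3.29 to 4.22 and 3.82 to 5.22 in the other cells. The summed bipolar markers were 3.55 to 5.88 and 2.92 to 3.91, higher with no overlap than the 2.25 to 2.98 and 1.88 to 2.09 of the other cells. This list holds Isl1, which RGCs also express, and without it the sums were 0.511 to 2.30 and 1.47 to 1.94 in Tbr1 ganglion cells and 1.15 to 1.76 and 1.15 to 1.53 in the other cells. Within samples the members were then lower in 5 of 6 uninjured and higher in 3 of 3 injured samples. A UMI of at least 3 markers of another class was seen in 36 of the 53 cells and in 1854 of the 2818 other cells.

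Tbr1 itself was used to choose the cells, so its values are a description. A Tbr1 UMI was seen in 8.25% of all cells. The members held 2 to 11 Tbr1 UMIs each, at 1.00 to 4.03 per 10000 UMIs with a median of 1.58, and 12 of them had 2 UMIs, 29 had 3 to 5, and 12 had 6 or more. Just outside the rule were 66 cells with at least 2 Tbr1 UMIs at up to 0.990 per 10000, and 118 cells with 1 Tbr1 UMI. The members carried 235 Tbr1 UMIs, 44.7% of those of the data set. The limits on Opn4, Eomes and Foxp2 removed 0 cells, and 0 members held a UMI of any of these genes. Per sample, the summed Tbr1 ganglion cells had 128 to 204 Tbr1 CPM (median 166) in uninjured and 169, 130 and 293 CPM in injured retinas, where the other cells had 0.357 to 5.33 and 3.24, 3.21 and 3.56 CPM.

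The first question was whether Tbr1 ganglion cells made up a smaller share of RGCs after ONC. Without a correction for depth they were 2.04%, 6.80%, 1.10%, 2.76%, 1.5% and 4.48% of the cells of uninjured 1 to 6 and 1.48%, 0.733% and 0.347% of the cells of injured 1, 2 and 3/4. Uninjured 2 and 6 were highest, and the lowest uninjured sample lay below injured 1. Injured cells held fewer UMIs, and the rule asks for a number of UMIs, so each cell was then thinned to 8000 UMIs, which left out 29 uninjured and 146 injured cells that were shallower. On equal depth the share was 1.76% ± 0.621 (SD, n = 6) in uninjured and 0.504% ± 0.703 (SD, n = 3) in injured samples, with the exact binomial 95% intervals of the injured samples at 0.357% to 3.31% for 4 of 306 cells, 0% to 1.46% for 0 of 251 cells, and 0.00522% to 1.14% for 1 of 485 cells. The limit that a count of 0 allows in injured 2 was 1.20%. Intervals and limits cover counting error only, and each cell was thinned in 1 random draw. At 8000 UMIs, 2 Tbr1 UMIs are a higher rate than the median of the members before thinning (1.58 per 10000). The cells that met the rule after thinning were thus not the same set: uninjured 5 had 4 before and 6 after it. The difference of -1.25 percentage points (injured minus uninjured) fell short of the threshold (exact permutation test over samples, two-sided, p = 0.0714, the smallest possible being 0.0238), and the groups overlapped. Unthinned, the shares were 3.11% ± 2.16 and 0.853% ± 0.576 (exact permutation test, two-sided, p = 0.0476). With alike libraries summed, the thinned difference was -1.32 percentage points (exact permutation test of 3 against 2, p = 0.2, the smallest possible). A lower share can come from fewer such cells or from less Tbr1 RNA in each, and these cannot be told apart here.

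**Figure D1:**
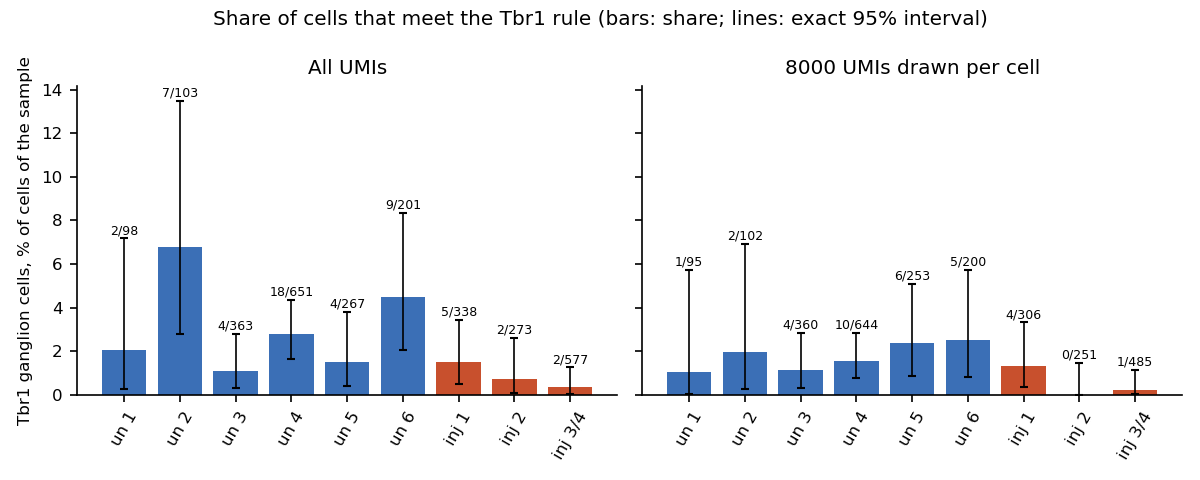
The share of cells that met the Tbr1 rule, in percent of the cells of each sample (blue, uninjured; red, injured), with all UMIs on the left and 8000 UMIs drawn per cell on the right; bars are shares, lines exact 95% binomial intervals, and the numbers above them members of all cells. At equal depth injured 1 (1.31%) lies within the range of the uninjured samples, and injured 2 and 3/4 lie below it.

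The 53 cells were not of 1 kind. For this description a mark was called present in a cell at the limits used for Tbr1 (at least 2 UMIs and at least 1 per 10000), and the groups were formed after the values had been seen, so no test was made. Calb2 (calretinin, a calcium-binding protein) was present in 50 of the 53 cells, the Brn3a gene Pou4f1 in 43, Sorcs3 in 42, Jam2 in 35 and the Brn3b gene Pou4f2 in 28. Calb2 and Pou4f1 were common elsewhere too, in 97.7% and 88.6% of uninjured members and 93.3% and 80.7% of the other uninjured cells. For Sorcs3, Jam2 and Pou4f2 these shares were 81.8%, 72.7% and 56.8% against 38.1%, 30.3% and 24.2%. Cdh8 was present in 20.5% against 15.4%, and Cartpt in 29.5% against 52.2%. Jam2 and Sorcs3 were present together in 32 cells. The cells were put into 3 sets by Cartpt and Cdh8, which were present together in 1 cell, and each set had cells of both conditions.

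The largest set, 27 cells from 8 samples (22 uninjured and 5 injured), had neither the neuropeptide precursor Cartpt nor the cadherin Cdh8. Jam2 was present in 22 of them at a median of 3.62 UMIs per 10000, Sorcs3 in 24 at 4.01, Calb2 in 26 at 19.9, and Pou4f2 in 17. The protocadherin Pcdh20 was present in 7 cells, all in this set, and each of these 7 also had Jam2 and Sorcs3. The second set held 11 cells from 7 samples (9 uninjured and 2 injured) with Cdh8 and without Cartpt. Cdh8 stood at a median of 2.81 and up to 6.77 UMIs per 10000 in them, and it had a UMI in 5 of the 27 cells of the first set. Sorcs3 (10 cells, median 4.33) and Jam2 (9 cells, median 1.71) were shared with the first set, Pou4f2 was present in 10 cells, and Pcdh20 had 0 UMIs in all 11.

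The third set, 15 cells from 6 samples (13 uninjured and 2 injured), had Cartpt at a median of 15.2 and up to 51.5 UMIs per 10000. In it the homeobox gene Irx4 had a UMI in 12 cells and in 0 of the other 38. Tfap2d, an AP-2 transcription factor, was present in 8 cells, and the Brn3c gene Pou4f3 in 8. Jam2 was present in 4 of the 15 (median 0.606) and Pou4f2 in 1 (median 0.217), where the first set had 22 and 17 of 27. The Islet gene Isl2 had a UMI in 9 of the 15 cells and in 1 of the other 38. The 1 cell with both Cartpt and Cdh8, an injured one, is counted here. Tbr1 was at a median of 1.64, 1.29 and 1.54 UMIs per 10000 in the Cartpt, Cdh8 and remaining cells.

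Marks of alpha cells varied in frequency. Spp1 (osteopontin, an alpha-cell mark) and the potassium channel subunit gene Kcng4 were both present in 1 cell, of uninjured 6, which had 165 Spp1 and 6 Kcng4 UMIs, 8 Tbr1 UMIs and 57724 UMIs in all, the deepest cell of its sample's Tbr1 ganglion cells. Of the 7 genes of the alpha-cell list, 4 had a UMI in a larger share of the uninjured members than of the other uninjured cells: Kcng4 in 11.4% against 1.89%, the neurofilament gene Nefh in 72.7% against 68.2%, Tpbg in 6.82% against 2.32% and Spp1 in 4.55% against 3.23%. The other 3 had one in a smaller share: the receptor gene Kit in 0% against 10.3%, Il1rapl2 in 9.09% against 11.0% and the kinase gene Fes in 2.27% against 3.11%. No test was made of these shares. These single-cell values were not compared between conditions, because injured samples gave 9 cells.

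**Figure D2:**
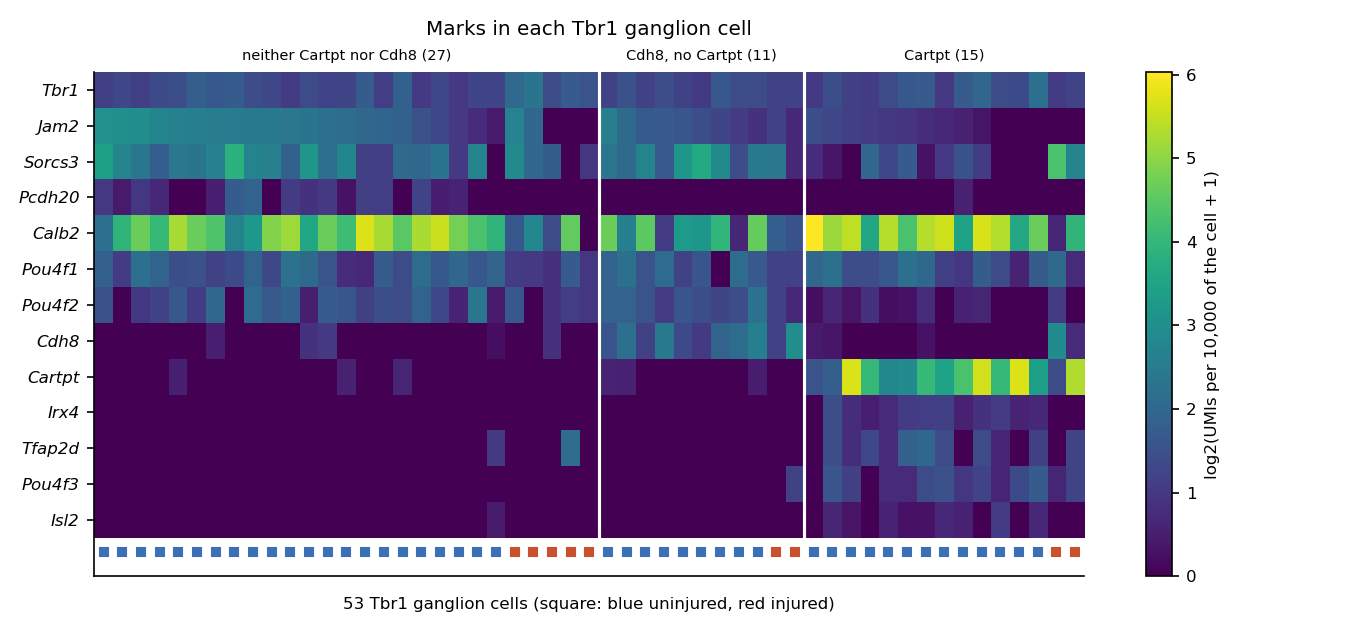
UMIs of 13 genes per 10000 UMIs of the cell, on a log2 scale after adding 1 (colour), in each of the 53 Tbr1 ganglion cells (columns; squares below, blue for uninjured and red for injured), with the 27, 11 and 15 cells of the sets set apart by white lines. Jam2 runs through most of the left set, Cdh8 sets the middle one apart, and Irx4 appears only among the Cartpt cells on the right.

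The second question was how Tbr1 ganglion cells differed from the other cells of the same samples. UMIs were summed over the members and over the other cells of each sample and tested with edgeR's quasi-likelihood test, with the sample as a block and Benjamini-Hochberg adjustment over all genes at 0.05. The planned test took the 4 samples with at least 5 members (uninjured 2, 4 and 6 and injured 1), and a test over all 9 samples, added after the cell numbers were known, is given beside it. Of 10950 genes tested, 173 (1.58%) were higher and 264 (2.41%) lower in Tbr1 ganglion cells, and over all 9 samples 174 of 10542 (1.65%) were higher and 419 (3.97%) lower. The 2 tests shared 377 genes, 86.3% of the calls from 4 samples and 63.6% of those from 9, and the 415 calls that both could test had the same sign in both. The 4 samples are among the 9, so the shared calls and signs are no independent check. Over 9 samples, library totals in place of TMM scaling moved the split to 244 higher and 303 lower, and the median log2 fold change of all genes from -0.14 to -0.04. In the 4 samples the direction of the split depended on the filter and the tool: it was 64 higher and 25 lower with at least 10 counts in every library, 88 and 87 at equal depth, and 107 and 106 with DESeq2.

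The genes of the Tbr1 ganglion cell list led with Jam2. In Tbr1 ganglion cells Jam2 stood at 151 to 434 CPM (median 301) in uninjured samples and at 108, 32.4 and 147 CPM in injured ones, and in the other cells at 50.2 to 98.1 (median 76.6) and at 6.47, 10.1 and 5.07 CPM. It was higher in Tbr1 ganglion cells in 9 of 9 samples, and the levels of members and other cells did not overlap within a condition. The log2 fold change was 1.76 ± 0.22 (SE, edgeR adjusted p = 1.12e-13), and 1.94 ± 0.19 over 9 samples.

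Sorcs3 was at 156 to 494 CPM (median 334) in uninjured and at 786, 292 and 195 CPM in injured Tbr1 ganglion cells, against 62.1 to 192 (median 168) and 53.8, 52.3 and 25.9 CPM in the other cells. It was higher in 9 of 9 samples, with a log2 fold change of 1.71 ± 0.26 (SE, edgeR adjusted p = 2.11e-06). The injured samples were all above all other-cell values of both conditions, while the uninjured ranges overlapped. Cdh8, at 0 to 205 CPM in uninjured and 231, 389 and 0 CPM in injured members, was higher in 6 of 9 samples and not past the threshold (log2 0.41 ± 0.25, edgeR adjusted p = 0.694). Calb2 was lower: 1785 to 2950 CPM (median 2292) in uninjured Tbr1 ganglion cells against 3364 to 7677 (median 5843) in the other cells, with no overlap, and 447, 778 and 293 against 432, 492 and 463 CPM after ONC, where the ranges overlapped. Its log2 fold change was -0.89 ± 0.21 (edgeR adjusted p = 0.00112). Pcdh20 passed over 9 samples only (log2 1.38 ± 0.33, edgeR adjusted p = 0.00129, against 0.0617 in 4 samples). In all, 2 of 5 tested genes of this list rose and 1 fell, at a list median log2 of 1.25, where 1.58% of all genes were higher and 2.41% lower at a median of -0.05. Of the 3 that could be tested with at least 10 counts in every library, 0 rose and 1 fell. Sorcs3 lost its call in 2 of 27 alternative settings, and its log2 fold change was 1.17 to 2.12 over the 27.

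**Figure D3:**
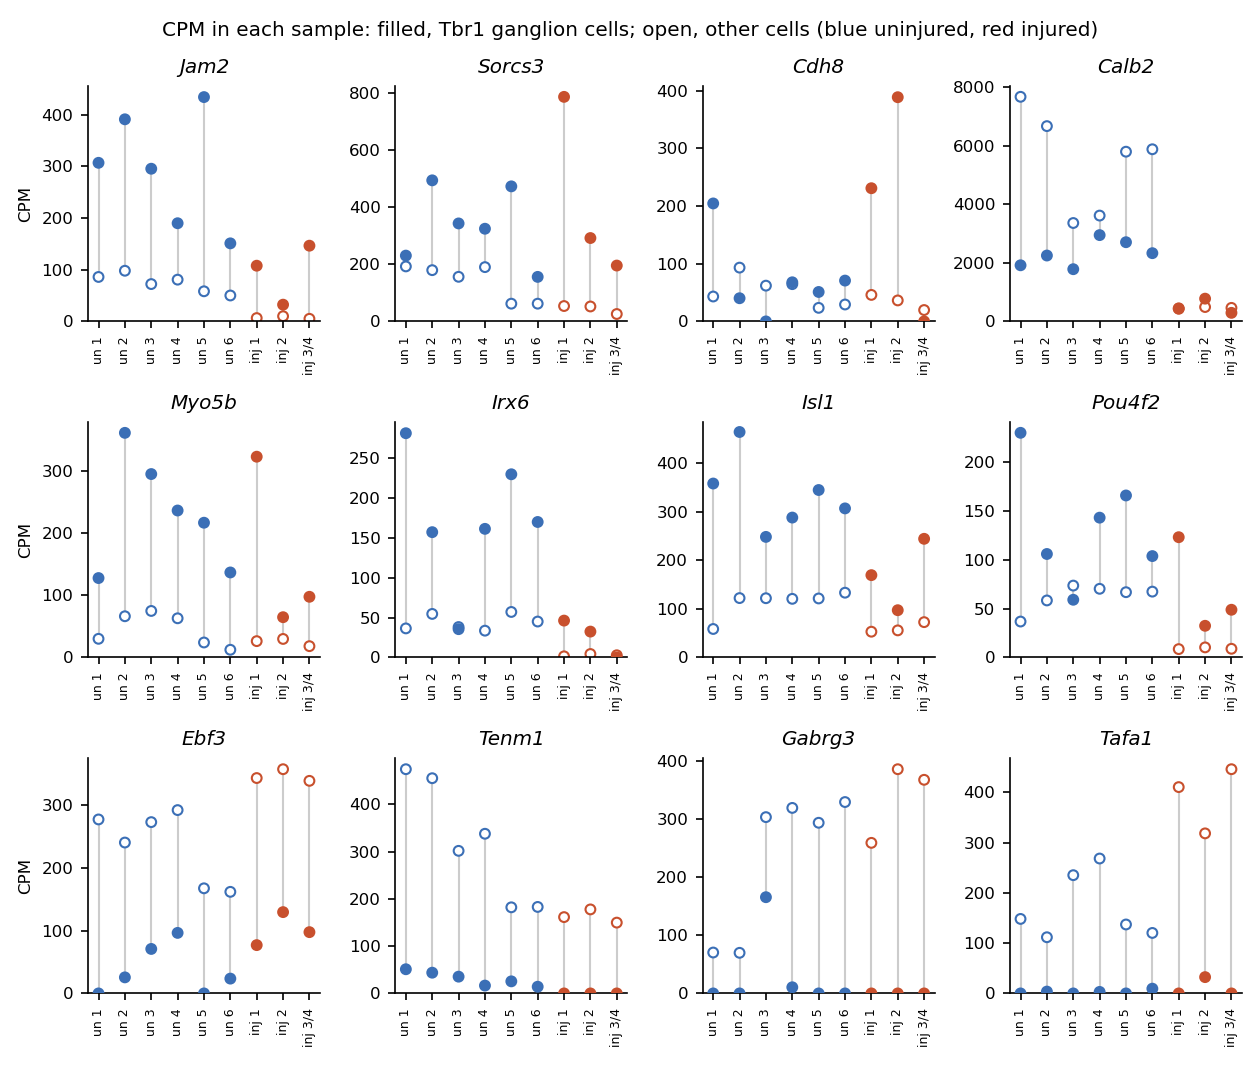
CPM (vertical axes, linear from 0) of 12 genes in Tbr1 ganglion cells (filled points) and in the other cells (open points) of each sample, blue for uninjured and red for injured, with a grey line joining the pair. Jam2, Sorcs3, Myo5b and Isl1 lie above the other cells in all 9 samples, and Ebf3, Tenm1, Gabrg3 and Tafa1 below them in all 9.

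The genes with the largest rises included the following. Myo5b, a myosin motor of recycling endosomes, was at 128 to 362 CPM (median 227) and at 324, 64.8 and 97.7 CPM in Tbr1 ganglion cells and at 12.3 to 74.9 (median 46.5) and 26.2, 29.8 and 18.1 CPM in the other cells. It was higher in every sample, by 2.63 ± 0.21 on the log2 scale (SE, edgeR adjusted p = 1.95e-32). Sntg2, which encodes the scaffold protein gamma-2-syntrophin, rose by 2.68 ± 0.26, and it had 0 UMIs in the members of injured 2 and 25.6 to 165 CPM in those of uninjured samples. Hpgd, the prostaglandin-degrading enzyme, was higher in 9 of 9 samples, at 220 to 626 CPM (median 366) and 216, 97.2 and 440 CPM against 36.1 to 108 and 12.6, 15.9 and 7.02 CPM, a log2 change of 1.95 ± 0.21. The p53 target Rprm (2.13 ± 0.21, higher in 8 of 9 samples), Ctxn3 (2.22 ± 0.24), the ubiquitin ligase gene Pdzrn3 (2.18 ± 0.32), the repulsive guidance molecule Rgma (1.94 ± 0.36), Slc35f3 (1.94 ± 0.26) and the cation channel Trpc6 (1.89 ± 0.25) completed the group together with Irx6. All 10 kept their direction in every setting in which they could be fitted.

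Irx6, an Iroquois homeobox factor, was the only 1 of 20 tested subtype transcription factors that was higher. It was at 35.5 to 281 CPM (median 166) in uninjured and 46.2, 32.4 and 0 CPM in injured members, against 33.6 to 57.1 and 1.36, 4.28 and 2.70 CPM in the other cells, and higher in 7 of 9 samples (log2 2.02 ± 0.23, SE, edgeR adjusted p = 2.15e-15). The factors of this list that were lower in Tbr1 ganglion cells numbered 7: Bnc2, Tbx20, Irx3, Irx2, Lmo1, Lmo4 and Foxp1, against 2.41% of all genes. Factors absent from the members, such as Bnc2 and Tbx20, could be tested only through the other cells, so this count is a description, and with at least 10 counts in every library 3 factors were tested and 0 were lower. Bnc2, a zinc-finger protein, had 0 UMIs in the 53 cells and 20.6 to 67.5 CPM in the other cells of each sample. With 3 counts over all uninjured member UMIs as the floor (2.22 CPM), it was at least 20.6-fold lower in the uninjured samples. Tbx20, a T-box factor like Tbr1, also had 0 UMIs in the members against 6.86 to 29.8 CPM, at least 10.2-fold lower in the uninjured samples. In the injured members, where 3 counts were worth 25.8 CPM, no such bound can be drawn for Tbx20.

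Of the T-box family apart from Tbr1 and Eomes, 4 of 8 genes could be tested, and Tbx20 was the 1 that changed (1 also at an unadjusted p under 0.05, and 1 by DESeq2). Tbx2, at 25.5 to 51.2 CPM in uninjured and 15.4, 0 and 48.9 CPM in injured members, had a log2 fold change of 0.34 ± 0.36 (edgeR adjusted p = 0.934), Tbx3 had 0.78 ± 0.62 (adjusted p = 0.852) and Mga had -0.23 ± 0.26 (adjusted p = 0.95). Of 9 genes that Tbr1 regulates in the cortex, 7 were tested and 3 were lower (2.41% of all genes were): the Sox factor Sox5 (-1.86 ± 0.32, edgeR adjusted p = 8.04e-07), the zinc-finger factor Bcl11a (-1.64 ± 0.41, adjusted p = 0.00221) and the extracellular glycoprotein Reln (-0.69 ± 0.22, adjusted p = 0.0377, and 0.0750 over 9 samples). Auts2 (0.47 ± 0.20, adjusted p = 0.308) and the NMDA receptor subunit Grin2b (0.00 ± 0.21, adjusted p = 1) did not pass. The list's median was -0.39, and DESeq2 called 1 of its 7 tested genes. Where at least 10 counts in every library were required, 3 of these genes were tested, of which 1 was lower and 0 higher.

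The Brn3, Islet and Ebf factors, which set RGC identity, split. Isl1, an Islet LIM-homeobox factor, was higher in 9 of 9 samples, at 248 to 464 CPM (median 326) and 169, 97.2 and 244 CPM in Tbr1 ganglion cells against 58.6 to 133 and 53, 55.7 and 72.7 CPM in the other cells, with no overlap in either condition. Its log2 fold change was 1.47 ± 0.21 (SE, edgeR adjusted p = 2.65e-10). Pou4f2 was higher in 8 of 9 samples (1.10 ± 0.23, adjusted p = 0.000156), and Ebf1 in 8 of 9 (0.76 ± 0.20, adjusted p = 0.00515). Ebf3 was lower in 9 of 9 samples, at 0 to 96.5 CPM and 77.0, 130 and 97.7 CPM in members against 162 to 292 and 343, 358 and 339 CPM, a log2 change of -2.23 ± 0.25 (adjusted p = 5.79e-16), and the ranges did not overlap. Ebf2 had 0 UMIs in the members and was at least 5.41-fold lower in the uninjured samples. Pou4f1 (-0.12 ± 0.21, adjusted p = 0.984) and Pou4f3 (-0.21 ± 0.29, adjusted p = 0.969) did not pass. In all 3 of 10 rose and 2 fell, where 1.58% and 2.41% of all genes did, and the list median was -0.06 beside -0.05 for all genes. Ebf2 could be tested only through the other cells. Of the 3 tested with at least 10 counts in every library, 2 rose and 0 fell, so the counts are a description.

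Of 29 tested receptor genes for glutamate, GABA and glycine, 11 fell and 3 rose, at a median log2 of -0.20, where 2.41% of all genes were lower and 1.58% higher. Genes as low in the members as Gabrg3 and Grik3 passed the filter through the other cells, and with at least 10 counts in every library 9 were tested, of which 0 fell and 2 rose, so the counts are a description. The GABA-A subunit gene Gabrg3 had 0 UMIs in the members of 7 of 9 samples and 165 CPM in those of uninjured 3 and 10.6 CPM in those of uninjured 4, against 69.8 to 329 and 259, 386 and 367 CPM in the other cells. Its log2 fold change was -5.59 ± 0.39 (SE, edgeR adjusted p = 5.53e-42), and -4.19 ± 0.38 over 9 samples, where uninjured 3 entered. The kainate receptor gene Grik3 had 2 UMIs in the uninjured members and 1798 in the other uninjured cells, 23.7-fold fewer per UMI (exact 95% counting interval 6.56 to 196). Grin2a, an NMDA receptor subunit, was lower in 9 of 9 samples (-2.93 ± 0.28), and the AMPA receptor genes Gria1 (-2.19 ± 0.30) and Gria3 (-1.69 ± 0.25) and the GABA-A genes Gabrb2 (-2.26 ± 0.27) and Gabra3 (-2.20 ± 0.51) fell as well. Gabra2 rose (1.03 ± 0.20, at 370 to 544 CPM in uninjured members against 207 to 284 in the other cells), as did the glycine receptor gene Glra2 (1.00 ± 0.27).

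**Figure D4:**
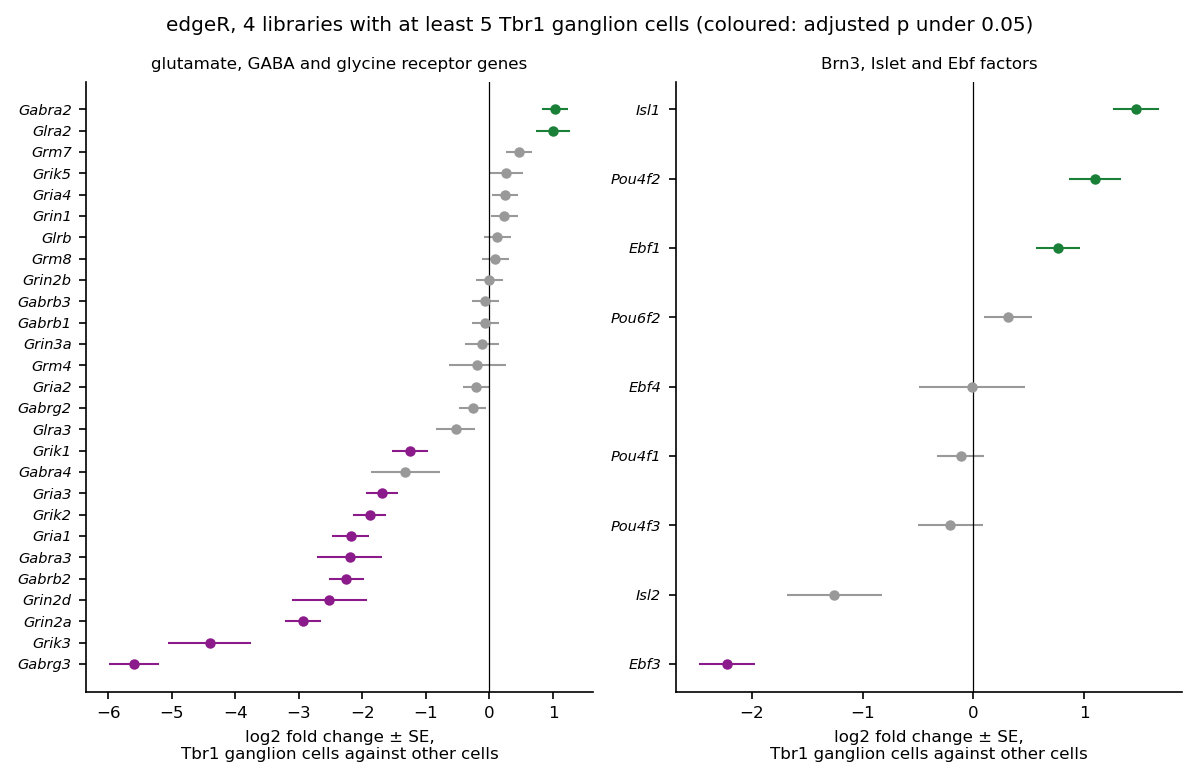
Log2 fold change of Tbr1 ganglion cells against other cells with its SE (horizontal axes; edgeR, 4 samples) for 27 of the 29 tested receptor genes on the left and the Brn3, Islet and Ebf factors on the right, coloured where the adjusted p was under 0.05 (green higher, purple lower); Ebf2, with 0 UMIs in the members, is not drawn. The purple receptor genes run from Grik1 (-1.25) to Gabrg3 (-5.59), and Isl1, Pou4f2 and Ebf1 lie to the right of 0.

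Among the remaining genes with the largest falls, Tafa1, a secreted chemokine-like protein, was at 0 to 9.44 CPM in uninjured and 0, 32.4 and 0 CPM in injured Tbr1 ganglion cells against 112 to 268 and 410, 318 and 446 CPM in the other cells. The muscarinic receptor gene Chrm3 had UMIs in the members of 1 sample, uninjured 4 (13.6 CPM), where the other cells of every sample had 61.4 to 154 CPM. Shisa6, an AMPA receptor partner, was likewise seen only in the members of uninjured 4 (7.54 CPM). The annexin gene Anxa3 had 0 UMIs in the 53 cells, and the other cells had 9.41 to 13.2 CPM in uninjured and 121, 117 and 146 CPM in injured samples. By the floor of 3 counts over the members of a condition it was at least 4.99-fold lower in the uninjured and at least 4.96-fold lower in the injured samples. The enkephalin precursor Penk had 2 UMIs in the uninjured members against 3904 in the other uninjured cells, 51.6-fold fewer per UMI (exact 95% counting interval 14.3 to 426), and the stress-hormone receptor Crhr1 had 2 against 1578, 20.8-fold fewer (5.76 to 172). Both had 0 UMIs in the injured members. Slitrk4, a synaptic adhesion gene, was lower by the test (edgeR adjusted p = 9.1e-06), with 1 UMI in the members of the 4 samples tested, but its members were above the other cells in uninjured 1 and 3, 2 samples that the test did not use.

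Of 39 tested adhesion and lamination genes, 5 were higher and 6 lower, where 1.58% and 2.41% of all genes were. Genes as low in the members as Cdh6 passed the filter through the other cells. Among the 16 tested with at least 10 counts in every library, 2 were higher and 0 lower, so the counts are a description. Beside Jam2 and Sorcs3, the contactin Cntn5 (1.05 ± 0.20), the semaphorin Sema5a (0.82 ± 0.22) and the cadherin Cdh4 (0.78 ± 0.21) rose. The teneurin Tenm1 fell to 14.2 to 51.2 CPM in uninjured members and to 0 CPM in the 3 injured samples, against 182 to 475 and 162, 178 and 150 CPM (-3.90 ± 0.30, edgeR adjusted p = 2.08e-34), and Cdh6 (-2.63 ± 0.50), Cdh7 (-1.67 ± 0.36), Sdk1 (-1.53 ± 0.24), Dscaml1 (-1.27 ± 0.38) and Ptprt (-1.14 ± 0.36) were lower. Of 35 ion channel genes, 1 was higher, the potassium channel Kcnb2 (1.18 ± 0.20), and 1 lower, the channel partner Kcnip1 (-1.51 ± 0.24), close to the 1.58% and 2.41% of all genes.

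Neuropeptide and granin genes gave 3 higher and 4 lower of 18, and all genes 1.58% higher and 2.41% lower at a median log2 of -0.05. Genes as low in the members as Penk and Npy passed the filter through the other cells. Of the 6 tested with at least 10 counts in every library, 1 was higher and 1 lower, so the counts are a description. Crhbp, which binds the corticotropin-releasing hormone, was at 94.6 to 537 CPM (median 235) and 108, 259 and 147 CPM in Tbr1 ganglion cells against 67.5 to 82.8 and 27.9, 37.5 and 26.9 CPM in the other cells, higher in 9 of 9 samples (log2 1.75 ± 0.21, SE, edgeR adjusted p = 1.88e-14). The processing enzyme Pcsk2 (0.81 ± 0.21) and the growth factor Igf1 (0.72 ± 0.22) rose, and galanin (Gal, -3.72 ± 0.50) and Scg2 (-0.65 ± 0.21) fell with Penk and Npy, which had 3 UMIs in the members. Of the genes associated with RGC survival, 4 of 9 tested were higher and 0 lower (median 0.72): Evc2 (1.79 ± 0.26), Crhbp, the kinase gene Stk32a (1.63 ± 0.21) and Igf1. Of the 14 subtype marks other than transcription factors, 4 of 9 tested were lower (Col25a1, Penk, Npy and Cdh6). Col25a1 had 0 UMIs in the members and passed the filter through the other cells. This count is a description, because 0 of these marks could be tested with at least 10 counts in every library. Of the alpha-cell genes 0 of 3 tested passed with edgeR (1 at an unadjusted p under 0.05, 0 with DESeq2), namely Spp1 (2.76 ± 2.37), which 1 cell carried, the interleukin-1 receptor relative Il1rapl2 (-0.06 ± 0.33) and the neurofilament gene Nefh (0.55 ± 0.23).

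Stress genes moved with these differences. The immediate early genes Fos (-1.75 ± 0.33, edgeR adjusted p = 1.27e-05) and Egr1 and the heat-shock gene Hspb1 (-1.87 ± 0.33) were lower in Tbr1 ganglion cells, 3 of 13 tested, with 0 higher, and the summed list was at 11.2 to 18.3 UMIs per 10000 in uninjured members against 15.3 to 16.9 in the other cells, and at 21.3, 32.7 and 18.1 in the members of injured 1, 2 and 3/4 against 33.6, 36.7 and 28.0 in their other cells, so that members were lower in 4 of 6 uninjured and 3 of 3 injured samples. Their part in the other differences was not tested. Beside the 1.58% of all genes that were higher and the 2.41% that were lower, of the pan-RGC markers 2 of 12 (Isl1 and Pou4f2) were higher and 0 lower, of the axon injury response genes 3 of 21 were lower (Gal, Gadd45a and Tubb2b), of the amacrine markers 1 was higher and 2 (Tfap2b and Gad1) lower of 10, and of the bipolar markers Isl1, which RGCs also express, was higher of 3. When at least 10 counts were required in every library, 4 axon injury response genes, 1 amacrine marker and 1 stress gene were tested. Of these 0 were lower, and the amacrine marker was higher. Of the glial markers 0 of 4 passed (0 also at an unadjusted p under 0.05 and 0 with DESeq2), and the only microglial marker tested did not pass.

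The third question was what changed in Tbr1 ganglion cells 2 weeks after ONC. The planned test set uninjured 2, 4 and 6 against injured 1 alone, because injured 2 and 3/4 had 2 members each. Its lone injured sample was assumed to vary like the uninjured ones. Of 6366 genes, 43 (0.675%) were higher and 15 (0.236%) lower after ONC. Over all 9 samples, 96 of 2037 genes (4.71%) were higher and 72 (3.53%) lower. The tests shared 37 genes, 63.8% of the calls from 4 samples and 22% of those from 9, and 40 calls tested in both had the same sign. Here too the 4 samples are among the 9, so this is no independent check. Library totals in place of TMM scaling moved the split over 9 samples to 85 higher and 98 lower. In 4 samples it was 27 higher and 30 lower with at least 10 counts in every library and 44 and 34 at equal depth. With 64915, 30852 and 20467 UMIs in the summed injured members, 1 UMI was worth 15.4, 32.4 and 48.9 CPM, so the injured values move in coarse steps.

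Some of the axon injury response genes rose. Of the 30 genes of the list, 14 had enough UMIs to be tested, and 5 of these were higher and 0 lower, where 0.675% of all genes were higher. Over 9 samples 7 of 8 tested were higher. Genes as low before ONC as Sox11 and Atf3 could be tested only through the injured samples, so these counts follow in part from the filter and are a description. Sox11, a growth-associated transcription factor, was at 0 to 35.5 CPM (median 13.2) in uninjured and at 662, 681 and 928 CPM in injured Tbr1 ganglion cells, with no overlap, a log2 change of 5.21 ± 0.47 (SE, edgeR adjusted p = 1.86e-06) and of 5.41 ± 0.41 over 9 samples. Atf3, a stress-induced transcription factor, had 2 UMIs in the 44 uninjured and 35 in the 9 injured members, in all 3 injured samples (324, 292 and 244 CPM). Per UMI this was 203-fold more (exact 95% counting interval 52.2 to 1745).

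The AP-1 factor Jun rose from 25.5 to 256 CPM (median 63.9) to 770, 519 and 293 CPM (3.31 ± 0.41, adjusted p = 9.88e-05), and the high uninjured value, in uninjured 1, rested on 10 UMIs of 2 cells. Ddit3, the stress factor CHOP, rose from 0 to 76.7 CPM (median 46.8) to 555, 421 and 342 CPM (3.28 ± 0.41, adjusted p = 0.000104). Stmn4, a microtubule regulator, rose from 70.9 to 192 CPM (median 179) to 1001, 908 and 831 CPM (2.54 ± 0.38, adjusted p = 0.000889). In Sox11, Atf3, Jun, Ddit3 and Stmn4 the 6 uninjured and the 3 injured samples did not overlap. This is a description, because all of them but Atf3 were named partly for showing no overlap between injured 1 and uninjured 2, 4 and 6. Gap43, the growth cone protein, at 319 to 793 CPM before and 1094, 1653 and 1466 CPM after ONC, missed the threshold in 4 samples (1.41 ± 0.37, edgeR adjusted p = 0.0890) and passed in 9 (1.73 ± 0.33, adjusted p = 0.00123), as did the tubulin gene Tubb2b (2.16 ± 0.50, adjusted p = 0.00611).

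The other genes with the largest rises differed more among the injured samples. The formin Fmn1 was at 70.9 to 153 CPM before and at 709, 162 and 391 CPM after ONC (2.99 ± 0.40, edgeR adjusted p = 0.000242, and 2.32 ± 0.39 over 9 samples). The postsynaptic scaffold gene Dlgap2 was at 7.31 to 51.2 CPM and at 324, 97.2 and 342 CPM (3.47 ± 0.58), and it could be tested only through injured 1, where it is high. The adenylyl cyclase gene Adcy8 was at 14.2 to 94.6 CPM and at 293, 64.8 and 391 CPM (2.74 ± 0.62). The protocadherin Pcdh15 (3.17 ± 0.44) stood at 662 CPM in injured 1, at 292 in injured 2 and at 0 in injured 3/4, Tmem117 (2.58 ± 0.50) at 339, 162 and 97.7 CPM, and the membrane protein gene Ly6e (2.54 ± 0.50) at 277, 64.8 and 97.7 CPM. All of these but Fmn1 were too low to be tested over 9 samples.

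Among the 10 genes with the largest falls, Aldoc, the brain aldolase, fell from 437 to 1454 CPM (median 843) to 61.6, 97.2 and 97.7 CPM (-4.11 ± 0.69, SE, edgeR adjusted p = 0.00414), and Ldha, lactate dehydrogenase A, from 213 to 897 CPM (median 683) to 77.0, 97.2 and 48.9 CPM (-3.32 ± 0.61, adjusted p = 0.00736). In both the conditions did not overlap, which the rule for naming genes asked of uninjured 2, 4 and 6 and injured 1. Chrna6, a nicotinic receptor subunit, fell from 294 to 567 CPM (median 345) to 30.8, 0 and 0 CPM (-3.46 ± 0.74, adjusted p = 0.0230). The tubulin gene Tubb4b (-3.89 ± 0.72) and Mgarp (-2.75 ± 0.50), a mitochondrial protein, fell, with overlap in injured 2, where they were at 194 and 519 CPM. The genes with 0 UMIs in injured 1 numbered 4: the sterol synthesis genes Fdft1 and Msmo1, the phosphatase gene Sacm1l and the RNA-binding Hnrnpdl. With 3 counts in that sample (46.2 CPM) as the floor they were at least 3.28-, 3.27-, 3.12- and 3.06-fold lower there than the mean of uninjured 2, 4 and 6. Msmo1 stood at 147 CPM in injured 3/4, within the uninjured range of 115 to 230 CPM, and did not pass over 9 samples (adjusted p = 0.0533). Map1a, a microtubule-associated protein gene, passed narrowly in 4 samples (-2.89 ± 0.69, adjusted p = 0.0499) and not in 9 (adjusted p = 0.109).

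The genes of the Tbr1 ganglion cell list were less uniform. Calb2 fell from 1785 to 2950 CPM to 447, 778 and 293 CPM (-2.53 ± 0.47, SE, edgeR adjusted p = 0.00737), with no overlap. Jam2, at 151 to 434 CPM before and 108, 32.4 and 147 CPM after ONC, did not overlap either but missed the threshold (-1.21 ± 0.70, adjusted p = 0.426, and -1.53 ± 0.53, adjusted p = 0.0679, over 9 samples). Sorcs3 (1.23 ± 0.49, adjusted p = 0.267) and Cdh8 (1.89 ± 0.53, adjusted p = 0.113) did not pass. The cortical Tbr1 target Auts2 was higher in 4 samples (1.57 ± 0.35, adjusted p = 0.0333) and not in 9 (0.96 ± 0.36, adjusted p = 0.0897). Of the 12 pan-RGC markers 0 passed with edgeR (3 at an unadjusted p under 0.05, 0 with DESeq2), and Rbpms2 fell over 9 samples (-1.76 ± 0.47, adjusted p = 0.0163). Where 0.675% of all genes were higher and 0.236% lower, of 9 survival-associated genes 0 passed (2 unadjusted, 0 with DESeq2), of 24 receptor genes 0 (5 unadjusted, 0 with DESeq2), of 30 adhesion genes 0 (6 unadjusted, 0 with DESeq2), of 31 ion channel genes 0 (8 unadjusted, 1 with DESeq2) and of 5 stress genes 0 (2 unadjusted, 0 with DESeq2). The summed stress list was at 18.1 to 32.7 UMIs per 10000 in injured against 11.2 to 18.3 in uninjured members, and its part in the rises was not tested.

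**Figure D5:**
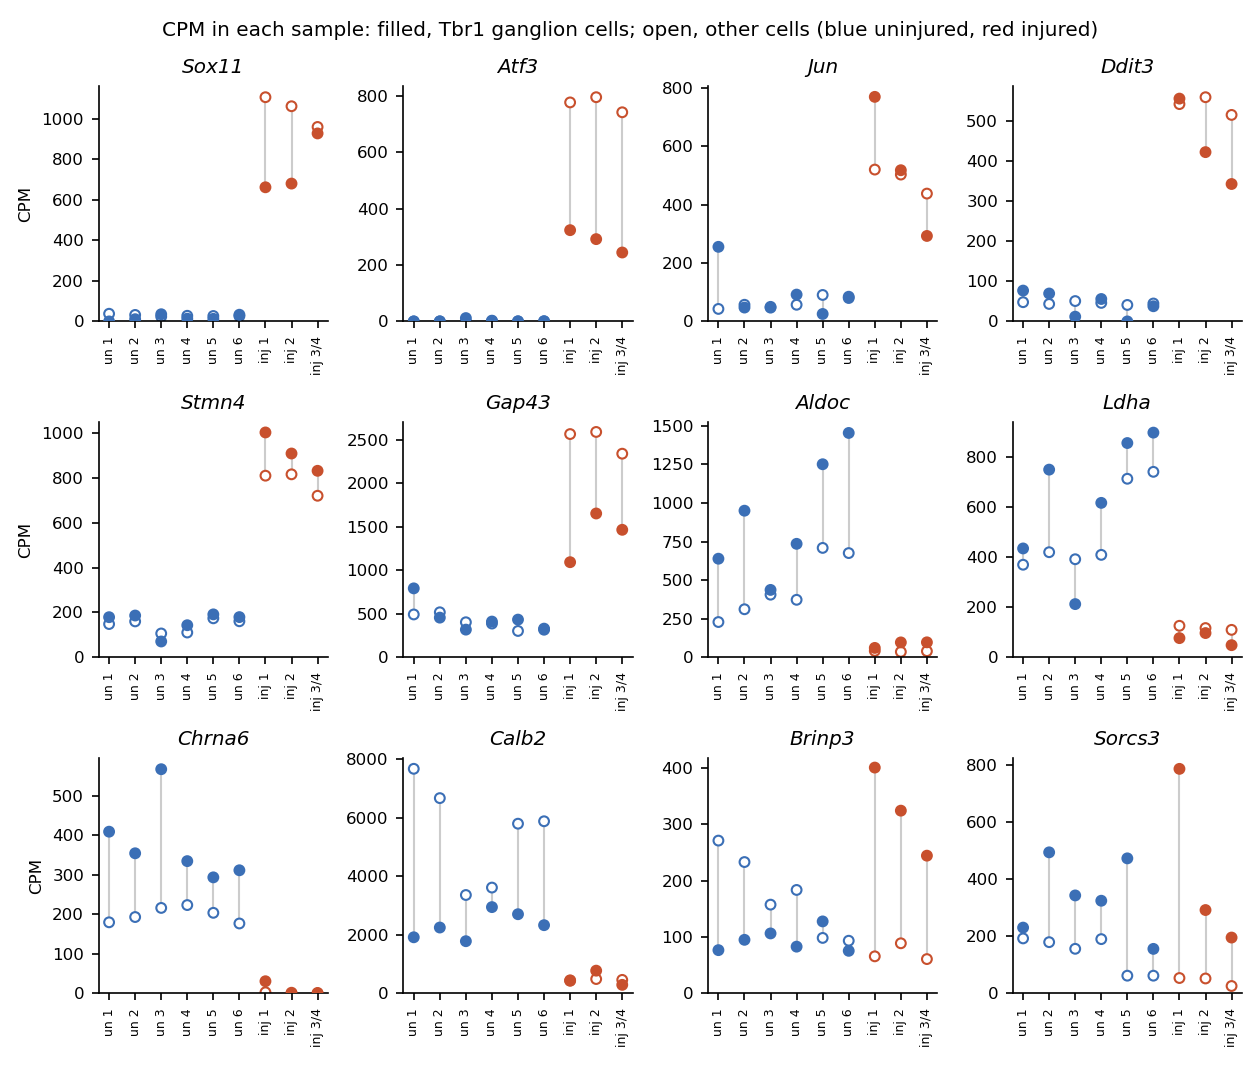
CPM (vertical axes, linear from 0) of 12 genes in Tbr1 ganglion cells (filled points) and the other cells (open points) of each sample, blue for uninjured and red for injured. Sox11, Atf3, Jun, Ddit3 and Stmn4 are higher in the 3 injured than in the 6 uninjured samples of Tbr1 ganglion cells, Aldoc, Ldha, Chrna6 and Calb2 are lower, and Brinp3 rises in the filled points while it falls in the open ones.

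Whether these changes differed from those in the other cells was asked with an interaction term. Of 13267 genes, 45 (0.339%) had a higher and 20 (0.151%) a lower log2 change after ONC in Tbr1 ganglion cells than in the other cells of the same 4 samples, and over 9 samples 24 (0.196%) and 16 (0.131%) of 12237. The tests shared 25 genes, 38.5% of the first calls and 62.5% of the second. With library totals in place of TMM scaling the split in 4 samples moved to 73 and 19, and the median over all genes from -0.54 to -0.37. The split was 17 and 25 at equal depth and 25 and 0 with DESeq2.

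Brinp3, a neural gene linked to cell-cycle exit, was the clearest. In Tbr1 ganglion cells it was at 75.6 to 128 CPM (median 89.0) before and at 401, 324 and 244 CPM after ONC, and in the other cells at 93.4 to 271 (median 170) before and 65.8, 88.9 and 60.9 CPM after. The injured members lay above all uninjured members and the injured other cells below all uninjured other cells, and the difference of the changes was 3.43 ± 0.50 (SE, edgeR adjusted p = 1.66e-08), and 2.83 ± 0.43 over 9 samples. Sorcs3 went from 156 to 494 CPM to 786, 292 and 195 CPM in members and from 62.1 to 192 CPM to 53.8, 52.3 and 25.9 CPM in the other cells (2.53 ± 0.43, adjusted p = 5.58e-06, and 1.75 ± 0.39, adjusted p = 0.00603). Cdh8 differed too (2.15 ± 0.56, adjusted p = 0.0318, and 2.19 ± 0.49, adjusted p = 0.00632), although its members had 0 UMIs in injured 3/4. In injured 1 a single cell held 35 Sorcs3 and 12 Cdh8 UMIs, where the other members held 0 to 7 and 0 to 2. In injured 2 a single cell held 11 Cdh8 UMIs and the other member 1. The injured 1 values of both genes and the injured 2 value of Cdh8 thus rest mostly on single cells. The potassium channel subunit gene Kcnab1 went the other way, from 25.6 to 87.5 CPM to 15.4, 0 and 0 CPM in members and from 23.5 to 56.3 CPM to 181, 147 and 142 CPM in the other cells (-4.61 ± 0.91, adjusted p = 0.000403, and -5.21 ± 0.89, adjusted p = 8.27e-06).

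Several interaction calls rested on injured 1. Tmem132d was at 385 CPM in the members of injured 1 and at 0 and 48.9 CPM in those of injured 2 and 3/4 (3.90 ± 0.52), and without injured 1 its value over the other samples was -0.28. Kcnip4, a potassium channel partner, was at 15759 CPM in the members of injured 1 and at 1977 and 2394 CPM in the others (2.80 ± 0.40), and without injured 1 it was -0.41. Pou4f2 (2.80 ± 0.73, adjusted p = 0.0295) and Rbpms2 (2.54 ± 0.64, adjusted p = 0.0181) passed in 4 samples and not in 9 (adjusted p = 0.242 and 0.235). The neuropeptide gene Crh had 0 UMIs in the injured members, where the other cells had 78.0, 83.8 and 53.8 CPM, against 0.383 CPM at the median in the other cells before ONC. The limit that 3 counts set in the injured 1 members was 46.2 CPM, under the other cells' level in that sample, while in injured 2 and 3/4 it was 97.2 and 147 CPM, above theirs. Of the 30 axon injury response genes 0 differed between the cells in 4 samples (edgeR, with 5 at an unadjusted p under 0.05, 0 with DESeq2), and Lgals3 had a lower change over 9 samples. After ONC the other cells had 1107, 1063 and 960 CPM of Sox11, against 662, 681 and 928 CPM in Tbr1 ganglion cells (-0.18 ± 0.54, adjusted p = 0.943). A test that misses its threshold does not show that these changes were alike.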

How the data were processed

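The authors aligned scRNA-seq reads of Thy1-immunopanned RGCs to mm39 (Cell Ranger 7.0.1 per the submitters' processing notes) and kept cells by gene, UMI, mitochondrial and pan-RGC limits. The authors deposited unnormalized UMI counts for 10 libraries. Doublets were not called again, and cells with at least 3 markers of another class were left out in a separate setting. Counts were summed per sample for members and other cells with Python 3.11.15 and tested with edgeR 4.0.16 (filterByExpr, TMM, robust quasi-likelihood, adjusted p under 0.05) in samples with at least 5 members. The injury test had 1 injured sample, assumed to vary like the uninjured ones, so all 9 samples were also fitted, a choice made after cell numbers were seen. DESeq2 1.42.0, other filters, thinning, summed similar libraries and left-out samples were alternatives. The scripts were tested on simulated data. The members, lists and tests were chosen with earlier results of these data known. Genes were named by rule: every tested gene of the Tbr1 ganglion cell, alpha-cell and T-box lists, the 10 largest changes in each direction with the same sign in every sample used (against other cells, average log2 CPM of at least 4) or with no overlap of conditions (after ONC, at least 6), the 5 largest interactions in each direction (at least 5), and the 2 largest in each direction of the other 18 lists. The 4 genes of the rule were given no test. Some genes that this rule names are not reported here. The labels and the methods differ on library kits and depletion steps.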

Additional observations from a re-analysis of the deposited data

Results flagged for a closer look

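Among 51 values of the named genes tested over the 6 uninjured samples of Tbr1 ganglion cells, 12 had a sample far from the others by Dixon's test at 95%, where chance gives about 5% of such groups. In several of them the sample stood above values of 0 or a few UMIs: Gabrg3 at 165 CPM in uninjured 3, Chrm3 at 13.6, Shisa6 at 7.54 and Nnat at 7.54 CPM in uninjured 4, Grik3 and Crhr1 at 3.02 CPM each in uninjured 4, and Adarb2 at 23.6 CPM in uninjured 3. Penk, given below, was another, with 2 UMIs in all uninjured members. Uninjured 4 gave 18 of the 44 uninjured members, and 1 UMI there is worth 1.51 CPM. Uninjured 1, with 2 members and 25.6 CPM for 1 UMI, stood apart for Penk (25.6 CPM), Jun (256 CPM), Fdft1 (409 CPM) and Glra3 (102 CPM). The heparan sulfate enzyme gene Hs6st3 was at 172 CPM in uninjured 4 and at 0 to 25.6 CPM in the other uninjured samples.

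The change after ONC differed between Tbr1 ganglion cells and the other cells by the edgeR interaction test for 20 of the named genes. The difference of the log2 changes was 5.07 for Adarb2 (adjusted p = 0.000189), 3.90 for Tmem132d (3.75e-10), 3.43 for Brinp3 (1.66e-08), 3.24 for the glycine receptor gene Glra3 (0.0205) and 3.14 for Nnat (0.0022). It was -4.61 for Kcnab1 (0.000403). Hs6st3 (-13.23), Cntnap4 (-12.63), the guidance receptor Robo1 (-12.60) and the cadherin Cdh12 (-12.12) had 0 UMIs in the members of injured 1, so their fitted values depend on the fit and are not sizes. In the fixed lists it was 3.08 for Evc2 (0.00664), 2.80 for Kcnip4 (7.81e-09), 2.80 for Pou4f2 (0.0295), 2.54 for Rbpms2 (0.0181), 2.53 for Sorcs3 (5.58e-06), 2.15 for Cdh8 (0.0318), 1.58 for Auts2 (0.028), -2.74 for Clu (0.0356) and -3.27 for C1ql2 (0.0279), and Crh (-14.03, 0.0131) also had 0 UMIs in the members of injured 1. Of these Sorcs3, Cdh8 and Crh passed over 9 samples and the other 7 did not (0.211 to 0.576). Of the 10 genes named for their size, over 9 samples Tmem132d, Brinp3, Kcnab1, Cntnap4 (-3.37, adjusted p = 0.0323) and Robo1 (-3.89, 0.0366) passed, and Adarb2 (0.0764), Glra3 (0.108), Nnat (0.192), Hs6st3 (0.833) and Cdh12 (0.247) did not.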

How the results depend on the processing

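The 9 injured members limit the comparisons with ONC. Of the 47 genes named against the other cells, all kept their direction in every setting fitted, and 65 of 1169 values lost significance. The 23 genes named after ONC kept theirs too, and 94 of 480 values lost significance. Of the 20 interaction genes, 12 kept their direction, 272 of 507 values lost significance, 11 turned, and 0 genes kept both direction and call in every setting. The cause of the shifts was not tested.

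Against the other cells 437 genes differed, and 89 with at least 10 counts in every library, 175 after thinning, 213 with DESeq2, 277 thinned over 9 samples, 237 with the stricter rule (6 samples), and 199 without cells that had markers of another class (7 samples). In the 4 samples DESeq2 called 3 of 20 subtype factors, 3 of 10 Brn3, Islet and Ebf factors and 9 of 29 receptor genes. It called 7 of 39 adhesion genes, 5 of 18 neuropeptide and granin genes, 1 of 21 axon injury response genes and 3 of 9 survival-associated genes. The edgeR counts of these lists were larger. Leaving out 1 sample gave 233 (without uninjured 2) to 517, and over 9 samples 462 to 565. After ONC 58 genes differed, and 136 without a filter, 166 with alike libraries summed and 37 with DESeq2. Over 9 samples these were 168, 183 with library totals, 189 with DESeq2, 106 thinned, 2 with the stricter rule (6 samples), 3 without cells with markers of another class (7 samples) and 208 with alike libraries summed (5 samples). These settings changed the samples as well as the cells, and their parts were not separated. Leaving out 1 sample gave 79 to 252 (without uninjured 6; 90 without uninjured 2), and over 9 samples 89 (without injured 1) to 270 (without uninjured 3), the others being 167, 140, 150, 143 and 151 without uninjured 1, 2, 4, 5 and 6 and 110 and 121 without injured 2 and 3/4. Of the interactions there were 65, and 42 thinned, 109 with alike libraries summed, 25 with DESeq2, 40 over 9 samples, 12 thinned over 9, 1 with the stricter rule (6 samples) and 5 without cells with markers of another class (7 samples). Leaving out 1 sample gave 23 (without uninjured 2) to 105 (without uninjured 4), and over 9 samples 15 (without injured 1) to 64, with 20 and 23 without uninjured 2 and 6, 41 and 43 without uninjured 4 and 5, and 41 without injured 2. The share differed by -2.26 percentage points without thinning (exact permutation p = 0.0476), by -2.04 with at least 1 Tbr1 UMI (p = 0.143), by -0.51 thinned to 5000 UMIs (p = 0.167), by -0.41 with the stricter rule (p = 0.238), and by -1.66 to -1.001 with 1 sample left out.

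With the replicate number as a block, 70 genes differed after ONC in samples 1 to 3, and 38 with no replicate block. Samples with the same number correlated at -0.09, 0.13 and 0.12 over 1036 genes, and those with different numbers at -0.188 to 0.117. Whether samples with the same number share more than the number cannot be told from these values, which come from few cells.

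Interactions that turned were Adarb2 (-0.17 with the stricter rule and -7.42 without injured 1), Nnat (-11.16 and -1.19), Hs6st3 (1.32 with the stricter rule, 0.027 without uninjured 4), Cdh8 (-9.19 with the stricter rule), C1ql2 (2.2 without cells with markers of another class), and, without injured 1, Tmem132d (-0.28), Kcnip4 (-0.41) and Evc2 (-0.81). In 4 samples the stricter rule, a minimum of 10 members, leaving out the cells with markers of another class, the block, and leaving out injured 1 from the injury tests could not be fitted.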
